A study of Eublepharis macularius with 18 samples.

Results

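The immediate early and stress response was followed through 7 genes in the heart of the leopard gecko, a lizard, after part of the ventricle wall had been frozen. They are 7 of the 12376 rows of the deposited expression table, picked by symbol: Nr4a1, Fosb, Jun, Jund, Dusp1, Gadd45b and Nfkbia. All 7 passed the filter on low values and were among the 9887 genes tested. The choice was made with low values already known in these libraries, in the sham group for Nr4a1 and Fosb and at 14 days for Dusp1, Gadd45b and Nfkbia. Differences of the 7 genes from control, of Nr4a1 and Fosb from sham, and of Dusp1, Gadd45b and Nfkbia from 14 days are therefore a description and are printed without a p-value. Where calls of the 7 genes in these comparisons are counted, they restate the choice and nothing is read from them.

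Immediate early genes are transcribed within minutes of a stimulus from factors that the cell already holds, so that no new protein has to be made first. Many encode transcription factors: Nr4a1 is an orphan nuclear receptor, and Fosb, Jun and Jund are subunits of AP-1, a dimer of FOS-like and JUN-like proteins that binds the promoters and enhancers of stress and growth genes. Others end the signal that switched them on. Dusp1 removes phosphate from mitogen-activated protein (MAP) kinases, and Nfkbia (I-kappa-B-alpha) holds NF-kappa-B in the cytoplasm, while Gadd45b links stress to MAP kinase signalling and growth arrest. In the mammalian heart these genes respond to stretch, catecholamines and ischaemia.

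Polyadenylated RNA of the ventricle was read from 18 animals, 3 in each of 6 groups. One group was labelled control and another sham, with no further account of what either underwent, and the other 4 were sampled 3, 14, 30 and 100 days post injury (dpi) with a metal probe cooled in liquid nitrogen. Tissue next to the injury, or a matching piece of ventricle in control and sham animals, was taken, and RNA was extracted from each animal on its own, so replicates are animals. The labels give no time of sampling for the sham group, no age, strain or sex, and no batch.

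Libraries held 12646411 to 34898541 reads. Of 12 cardiomyocyte markers, 9 were measured, and 8 of these were not at 0 in all libraries. Their summed level was 11736 to 21979 FPKM (fragments scaled by transcript length and library size) per library. The ninth, Myl2, was listed at 0 in all 18 libraries. Tnnc1, Myl3 and Pln were not found by symbol in the expression table used here, so they were not analysed. The sums of other cell markers moved between groups. Erythrocyte and thrombocyte markers (7 of 16 measured, none at 0 in all libraries) summed to 671 to 1910 FPKM in control, 157 to 974 in sham, 582 to 1392 at 3 dpi, 857 to 3752 at 14 dpi, 180 to 426 at 30 dpi and 283 to 707 at 100 dpi. Fibroblast markers (7 of 8 measured, none at 0 in all) summed to 340 to 409 FPKM in control, 327 to 493 in sham, 538 to 731 at 3 dpi, 806 to 873 at 14 dpi, 252 to 774 at 30 dpi and 281 to 446 at 100 dpi. Smooth muscle and pericyte markers (8 of 9 measured, none at 0 in all) summed to 3092 to 4259 FPKM in control, 2875 to 3001 in sham, 3218 to 4850 at 3 dpi, 2732 to 3592 at 14 dpi, 2451 to 3598 at 30 dpi and 1891 to 3001 at 100 dpi, so neither sham nor 100 dpi overlapped with control. Endothelial markers (7 of 10 measured, none at 0 in all) summed to 57.8 to 71.6 FPKM in control and 57.1 to 79.3 in sham. They summed to 72.0 to 91.5 at 3 dpi, 62.1 to 84.0 at 14 dpi, 70.4 to 79.3 at 30 dpi and 91.1 to 115 at 100 dpi. The 100 dpi group did not overlap with control or sham, and 3 dpi did not overlap with control. Macrophage and granulocyte markers (7 of 13 measured, none at 0 in all) summed to 12.7 to 28.8 FPKM in control and 7.67 to 10.9 at 30 dpi. The part of these marker sums in the results below was not tested. In such tissue, fewer cells of a type and less RNA of a gene per cell cannot be told apart.

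Levels are normalized counts, reads scaled by library, given for animals 1, 2 and 3 of a group in that order. A log2 difference is on the log2(normalized count + 1) scale, is given with its standard error (SE), and understates the change of low genes; rises and falls are given in these log2 units. A gene was called in a comparison where its limma p-value, adjusted over all 9887 tested genes by Benjamini and Hochberg, was under 0.05. The gene lists used below were drawn up with earlier results of these data known. Calls of list genes therefore describe these animals and are not separate evidence. To see which calls rest on 1 animal, each of the 6 animals of a comparison was left out in turn.

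On the scale that allows genes to be compared, FPKM, Nr4a1, Dusp1 and Jund were the most abundant of the 7 and Fosb the least. Median levels over the 18 libraries were 248 FPKM for Nr4a1, 209 for Jund, 173 for Dusp1, 74.5 for Gadd45b, 44.4 for Jun, 29.0 for Nfkbia and 1.87 for Fosb. The range differed as much as the level. Fosb spanned 90.1-fold between its lowest and highest library, Dusp1 18.1-fold and Nr4a1 7.18-fold, whereas Nfkbia spanned 2.28-fold. The spread between animals of 1 group, pooled over the 6 groups, was an SD of 1.33 on the log2 scale for Fosb, 0.88 for Dusp1, 0.54 for Nr4a1, 0.44 for Jun, 0.40 for Jund, 0.39 for Gadd45b and 0.26 for Nfkbia. The median tested gene had 0.23. Fosb thus varied more between animals of a group than 98.5% of tested genes, and Dusp1 more than 95.4%.

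**Figure D1:**
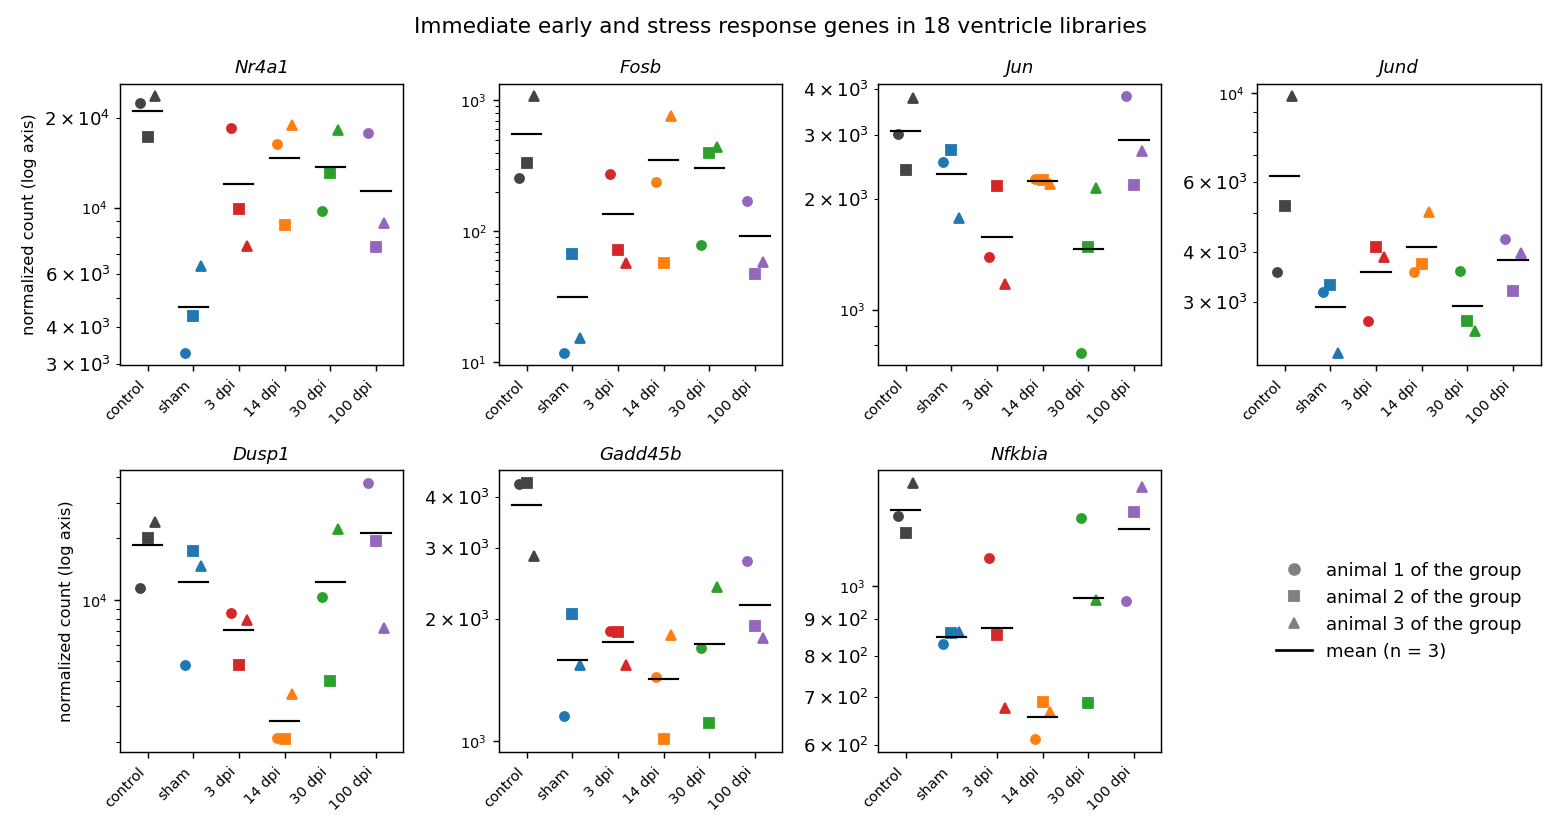
Normalized counts (log axis) of the 7 genes in the 18 libraries, by group; circles, squares and triangles are animals 1, 2 and 3 and the bar is the group mean. The 3 sham animals lie at 3280 to 6362 for Nr4a1, below all other animals, and the 3 animals at 14 dpi lie at 2065 to 3426 for Dusp1, again below all others.

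Nr4a1 was lowest in the sham animals and highest in the controls. It measured 22367, 17227 and 23540 normalized counts in control and 3280, 4346 and 6362 in sham. It measured 18516, 9910 and 7468 at 3 dpi, 16310, 8770 and 18860 at 14 dpi, 9769, 13106 and 18235 at 30 dpi and 17812, 7388 and 8855 at 100 dpi. All 3 sham animals were below all 15 others. The groups after injury overlapped with each other, and those at 3, 14, 30 and 100 dpi each had an animal above control animal 2, the lowest control. In order of group means, control (21045 ± 3358, SD, n = 3), 14 dpi, 30 dpi, 3 dpi and 100 dpi each overlapped with the next, and the gap without overlap came between 100 dpi (11352 ± 5643) and sham (4663 ± 1565). The sham mean was 4.51-fold below control, a log2 difference of -2.21 ± 0.39.

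Against sham, Nr4a1 lay higher in every animal at every time after injury. The log2 difference was 1.31 at 3 dpi, 1.63 at 14 dpi, 1.56 ± 0.39 at 30 dpi and 1.23 at 100 dpi. The 4 comparisons share the sham libraries, whose low Nr4a1 was known when the gene was chosen.

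The other receptors of the family, Nr4a2 and Nr4a3, were not among the chosen genes and were also low in sham. Nr4a3 measured 1666, 366 and 720 normalized counts in sham, 9494, 7156 and 12109 at 14 dpi and 12723, 13955 and 4991 at 30 dpi, and neither time overlapped with sham. It rose by 3.62 ± 0.62 against sham at 14 dpi (limma adjusted p = 0.0137) and by 3.66 ± 0.62 at 30 dpi (0.00165). The call at 14 dpi was lost without sham animal 2 and without 14 dpi animal 1 or 2 (limma adjusted p = 0.0504 to 0.0854). Nr4a2 measured 34.5, 257 and 245 in sham and 1356, 981 and 1586 at 30 dpi, a rise of 3.29 ± 0.69 (limma adjusted p = 0.00789). Both calls at 30 dpi were kept in all 6 fits that left out an animal of these groups, and that for Nr4a2 was lost when the fit held only these 2 groups (0.0581). In control, Nr4a3 measured 5819, 3893 and 11052 and Nr4a2 370, 905 and 1176. The calls against sham use the same sham animals whose low Nr4a1 was known when its relatives were listed. They are not separate evidence of a rise after injury.

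Fosb had the same low group at a far lower level. It measured 258, 330 and 1072 normalized counts in control and 11.9, 66.9 and 15.3 in sham, where the 3 libraries held 10, 78 and 17 reads of it. It measured 277, 72.0 and 57.6 at 3 dpi, 238, 57.4 and 761 at 14 dpi, 79.2, 397 and 444 at 30 dpi and 170, 47.3 and 58.3 at 100 dpi. Every sham animal was below every control animal, but sham animal 2 lay above the lowest animal at 3, 14 and 100 dpi. In order of means, each of the 6 groups overlapped with the next, from control (553 ± 451, SD, n = 3) through 14 dpi, 30 dpi, 3 dpi and 100 dpi to sham (31.4 ± 30.8). The sham mean was 17.6-fold below control, a log2 difference of -4.22 ± 0.96. Against sham, the log2 difference was 2.13 ± 0.96 at 3 dpi, 3.18 at 14 dpi, 3.32 at 30 dpi and 1.70 at 100 dpi.

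Jun, the AP-1 subunit that pairs with FOS-like proteins, was lowest at 3 and 30 dpi instead. It measured 3006, 2406 and 3780 normalized counts in control, 2523, 2728 and 1776 in sham and 1387, 2174 and 1175 at 3 dpi. It measured 2268, 2258 and 2195 at 14 dpi, 764, 1481 and 2146 at 30 dpi and 3813, 2188 and 2700 at 100 dpi. All animals at 3, 14 and 30 dpi were below all controls, whereas sham and 100 dpi overlapped with control. In order of means, control, 100 dpi, sham and 14 dpi each overlapped with the next, 14 dpi (2240 ± 39.3, SD, n = 3) did not overlap with 3 dpi (1579 ± 526), and 3 dpi overlapped with 30 dpi (1464 ± 692). The mean at 30 dpi was 2.09-fold below control (log2 -1.16 ± 0.32). Against sham at 30 dpi the difference was -0.78 ± 0.32 (limma adjusted p = 0.167), and the later rise from 30 to 100 dpi, 1.07 ± 0.32, was not called either (0.133), so Jun did not pass the test in any comparison that leaves out the control animals.

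Jund, which in mammals is made at a steadier rate than the other JUN genes, had 1 high animal, control animal 3, and overlapped between most groups. It measured 3558, 5219 and 9826 normalized counts in control and 3168, 3309 and 2240 in sham. It measured 2686, 4128 and 3888 at 3 dpi, 3569, 3739 and 5031 at 14 dpi, 3592, 2679 and 2540 at 30 dpi and 4317, 3193 and 3971 at 100 dpi. Control animal 3 was far above the next highest animal of all 18, control animal 2. Every sham animal was below every control, while control animal 1 lay within the range of the groups at 3, 30 and 100 dpi and just below that at 14 dpi. Each group overlapped with the next in order of means, from control (6201 ± 3247, SD, n = 3) to sham (2906 ± 581). At 30 dpi the log2 difference from control was -0.97 ± 0.29 with all controls and -0.57 without control animal 3. Against sham the log2 differences were 0.29 at 3 dpi, 0.51 at 14 dpi, 0.02 at 30 dpi and 0.41 at 100 dpi, each with an SE of 0.29 (limma adjusted p = 0.455 to 0.978).

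Of the 10 other AP-1 family genes tested, Fosl2 and Atf7 rose against sham. At 30 dpi 2 were called higher and 1, not named here, lower, against 5.9% and 1.36% of all tested genes. At 100 dpi 2 were called higher (5.54% of all), and at 3 and 14 dpi 1 was (0.668% and 0.698%). Fosl2, a FOS-like subunit, measured 349, 270 and 258 normalized counts in sham and 584, 525 and 839 in control, and none of the other 15 animals was as low as any sham animal. It rose by 1.62 ± 0.33 against sham at 3 dpi, 1.63 at 14 dpi, 1.68 at 30 dpi and 1.16 at 100 dpi (limma adjusted p = 0.0383, 0.0290, 0.00475 and 0.0433). The call at 30 dpi was kept whichever of the 6 animals was left out, that at 3 dpi only without 3 dpi animal 2, and those at 14 and 100 dpi in none of the 6 fits (limma adjusted p = 0.0613 to 0.160). With only the 2 groups in the fit, the calls at 3 dpi (limma adjusted p = 0.0701) and 30 dpi (0.0517) were lost, and with the replicate block those at 3 dpi (0.0519), 14 dpi (0.0576) and 100 dpi (0.0665) were. Other settings lost some of these calls too. Of the 10 alternative settings, the call was kept in 7 at 3 dpi, 8 at 14 dpi, 9 at 30 dpi and 7 at 100 dpi. Atf7, a factor of the CREB and ATF group, rose by 0.80 ± 0.20 at 30 dpi (limma adjusted p = 0.0204) and 0.72 ± 0.20 at 100 dpi (0.0384). Its call at 30 dpi was lost without sham animal 2 and without 30 dpi animal 2 or 3 (limma adjusted p = 0.0829 to 0.108), and that at 100 dpi in all 6 fits. With the length trend removed both were lost (0.137 and 0.0976), and each was kept in 8 of 10 alternative settings. Against control, Atf7 was called higher by 1.18 at 30 dpi and 1.09 at 100 dpi (limma adjusted p = 0.00141 and 0.00270). Those 2 calls were kept in all 10 alternative settings and in all 6 fits that left out an animal. Of the 10 genes, 1 was called higher than control at each time, where 729 and 747 of all tested genes were. The AP-1 list was drawn up with the low Fosb of these sham animals known, so its calls against sham are not separate evidence of a rise after injury.

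**Figure D2:**
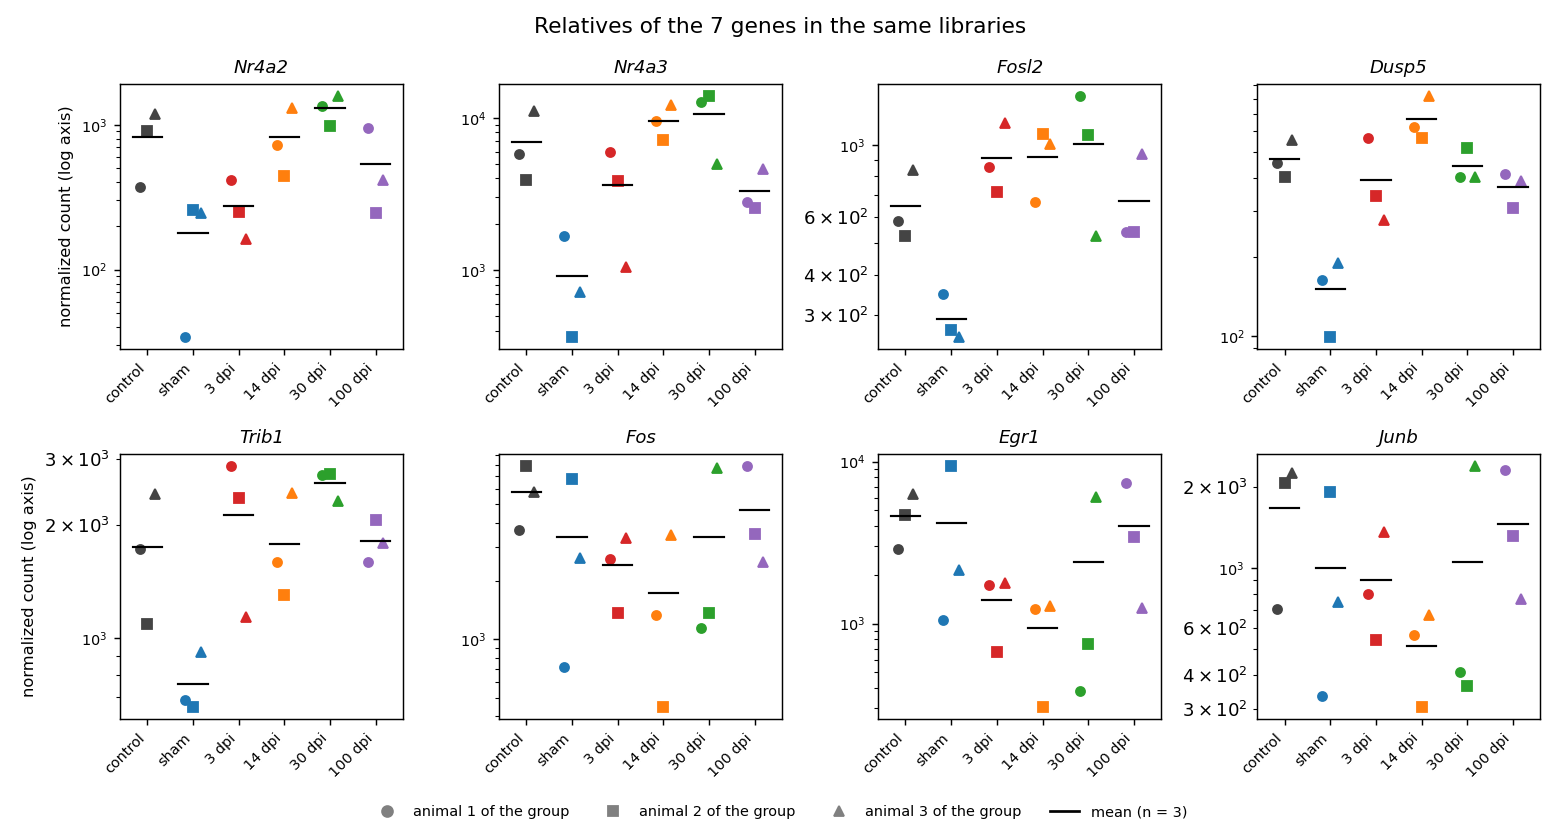
Normalized counts (log axis) of 8 related genes in the 18 libraries, by group; circles, squares and triangles are animals 1, 2 and 3 and the bar is the group mean. For Fosl2, Dusp5 and Trib1 the 3 sham animals lie below all others, while Fos, Egr1 and Junb have 1 high animal in sham, at 30 dpi and at 100 dpi.

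For Fos and Junb, the closest relatives of Fosb and Jun, sham overlapped with control. Sham animals 1 and 3 were below all controls for Fos, and sham animal 1 was for Junb. Fos measured 722, 6745 and 2627 normalized counts in sham and 3669, 7876 and 5771 in control, and sham animal 2 was above 2 of 3 controls. Junb measured 336, 1905 and 747 in sham and 706, 2062 and 2245 in control. Egr1, a zinc finger factor added here after its values were seen, measured 1054, 9423 and 2138 in sham, and sham animal 2 was the highest of all 18. Fos, Junb and Egr1 each had 30 dpi animal 3 and 100 dpi animal 1 as the highest of their groups. The limma adjusted p for sham against control was 0.930 for Fos, 0.930 for Junb and 0.957 for Egr1. In that comparison limma called 0% of all tested genes, so these values cannot separate Fos, Junb and Egr1 from the genes low in sham.

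Dusp1 had its low point at 14 dpi and not in sham. It measured 11426, 20030 and 24055 normalized counts in control, 4777, 17381 and 14577 in sham and 8614, 4786 and 7921 at 3 dpi. It measured 2093, 2065 and 3426 at 14 dpi, 10350, 3995 and 22310 at 30 dpi and 37360, 19352 and 7229 at 100 dpi. All 3 animals at 14 dpi were below all 15 others, and all animals at 3 dpi were below all controls. In order of means, 100 dpi (21314 ± 15161, SD, n = 3), control, sham, 30 dpi and 3 dpi (7107 ± 2039) each overlapped with the next, and 14 dpi (2528 ± 778) overlapped with none. The mean at 14 dpi was 7.32-fold below control, a log2 difference of -2.85 ± 0.64. At 14 dpi fibroblast marker sums were 806 to 873 FPKM and erythrocyte and thrombocyte sums 857 to 3752, both given above for control; their part in the Dusp1 level was not tested.

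The log2 difference of Dusp1 was -1.49 ± 0.64 from 3 to 14 dpi, 1.99 from 14 to 30 dpi and 2.82 from 14 to 100 dpi, and at 14 dpi it was -2.12 against sham. These 4 differences rest on the animals at 14 dpi, whose low values chose the gene, and the comparison of 100 with 14 dpi was added after those values were seen.

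Dusp5, a nuclear phosphatase of MAP kinases, went the other way at 14 dpi. It measured 163, 99.4 and 190 normalized counts in sham, 457, 401 and 556 in control and 625, 566 and 821 at 14 dpi, and no animal of another group was as low as any sham animal. Against sham it rose by 1.36 ± 0.27 at 3 dpi (limma adjusted p = 0.0383), 2.18 at 14 dpi (0.00117), 1.58 at 30 dpi (0.00149) and 1.32 at 100 dpi (0.00695). The last 3 calls held in all 10 alternative settings and in all 6 fits that left out an animal, and the first only without 3 dpi animal 2 and not with only the 2 groups in the fit (0.175). Of the 10 phosphatases tested besides Dusp1, Dusp7 was also called. It fell by 0.98 at 30 dpi against sham (limma adjusted p = 0.0138). The call was lost without sham animal 2 (limma adjusted p = 0.0632), without 30 dpi animal 2 (0.0630) and with only the 2 groups in the fit (0.119). At 30 dpi 1 of the 10 was called higher and 1 lower, against 5.9% and 1.36% of all tested genes. At 3, 14 and 100 dpi 1 was called higher, against 0.668%, 0.698% and 5.54%. These calls too share the sham animals and a list drawn up with earlier results known, and are a description.

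Genes upstream of these responses, MAP kinases and the factors they act on, were called against sham at 30 and 100 dpi only. Of 31 tested, 6 rose and 2 fell at 30 dpi, where 5.9% of all tested genes were called higher and 1.36% lower, and 6 rose and 0 fell at 100 dpi, where 5.54% were called higher. Creb1, Braf, Rps6ka3, the SRF partner Elk4 and the JNK activator Map2k7 rose at both times. With the trend of values with transcript length removed, none of these 5 was called at 30 dpi (limma adjusted p = 0.193 to 0.405), and at 100 dpi Map2k7 (0.192) was not. Creb1, which binds cyclic AMP response elements, rose by 0.47 ± 0.09 at 30 dpi (limma adjusted p = 0.00546) and 0.61 ± 0.09 at 100 dpi (0.00108). Braf, a kinase at the head of a MAP kinase cascade, rose by 0.57 ± 0.09 (0.00145) and 0.64 ± 0.09 (0.000767). Rps6ka3, a kinase at the end of such a cascade, rose by 0.43 ± 0.11 (0.0259) and 0.86 ± 0.11 (0.000211). With the length trend removed the differences at 30 dpi were 0.24 for Creb1, 0.21 for Braf and 0.19 for Rps6ka3, and with only the 2 groups in the fit Creb1 (limma adjusted p = 0.0622) and Rps6ka3 (0.127) were not called there. The calls for Creb1 and Braf were kept without any of the 6 animals, as was that for Rps6ka3 at 100 dpi, while at 30 dpi Rps6ka3 was kept only without sham animal 2 or 30 dpi animal 1. Elk4 (limma adjusted p = 0.0226 at 30 dpi and 0.00277 at 100 dpi) was kept in 2 and 6 of these 6 fits. Map2k7 (0.0319 and 0.0465) was kept in 2 and 0. Of 10 alternative settings, Elk4 was kept in 7 at 30 dpi and 10 at 100 dpi, and Map2k7 in 7 at each time. Map3k1, a kinase upstream of JNK, fell by 1.17 at 30 dpi (limma adjusted p = 0.0186; 0.0672 without sham animal 1, 0.0878 without 30 dpi animal 2 and 0.0687 with only the 2 groups in the fit), and by 2.00 in the FPKM table. Against control, 6 of 31 were called higher and 0 lower at 30 dpi, where 729 and 391 of all tested genes were. At 100 dpi 7 were called higher and 1, Srf, lower, where 747 and 440 (4.45%) of all tested genes were. Srf, which drives Fos and Egr1 in mammals, was lower than control at 100 dpi (log2 -0.88 ± 0.22, limma adjusted p = 0.0161). Its call was lost without control animal 3, without 100 dpi animal 1 or 3 (0.05004 to 0.0547) and with only the 2 groups in the fit (0.0958). At 3 and 14 dpi limma called no gene of this list against sham or control.

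Gadd45b stood lower than control in every animal of every other group. It measured 4320, 4337 and 2860 normalized counts in control, 1156, 2065 and 1546 in sham and 1867, 1855 and 1539 at 3 dpi. It measured 1443, 1011 and 1825 at 14 dpi, 1698, 1107 and 2405 at 30 dpi and 2785, 1923 and 1799 at 100 dpi. All 15 other animals were below all 3 controls, the nearest being 100 dpi animal 1 and control animal 3. The 5 other groups, from 100 dpi (2169 ± 537, SD, n = 3) through 3 dpi, 30 dpi and sham to 14 dpi (1426 ± 407), each overlapped with the next in order of means. The log2 difference from control was -1.29 in sham, -1.11 at 3 dpi, -1.44 at 14 dpi, -1.19 at 30 dpi and -0.83 at 100 dpi, each with an SE of 0.29, and these 5 share the control libraries. Against sham it was between -0.16 and 0.46.

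Gadd45g, a relative with a related role in stress signalling, measured 360, 639 and 310 normalized counts in control and 176, 243 and 163 in sham, which did not overlap. Gadd45a, the third of the family, was low in every library, at 17.4 to 52.3 normalized counts. Of the 10 genes tested besides Gadd45b in the list of GADD45 and p53 stress genes, limma called none against control or sham at any time.

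Nfkbia varied least and had its lowest group at 14 dpi. It measured 1255, 1187 and 1393 normalized counts in control, 829, 860 and 862 in sham and 1095, 856 and 676 at 3 dpi. It measured 611, 690 and 668 at 14 dpi, 1246, 688 and 956 at 30 dpi and 953, 1270 and 1377 at 100 dpi. All animals of sham, 3 dpi and 14 dpi were below all controls, and all animals at 14 dpi were below all in sham, while 100 dpi lay above sham without overlap. In order of means, control (1278 ± 105, SD, n = 3), 100 dpi, 30 dpi, 3 dpi and sham (850 ± 18.2) each overlapped with the next, and sham did not overlap with 14 dpi (656 ± 40.3). The mean at 14 dpi was 1.95-fold below control (log2 -0.96 ± 0.20).

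From 14 to 100 dpi the log2 difference of Nfkbia was 0.85 ± 0.20, in a comparison added after the values were seen. Against sham it was -0.38 ± 0.20 at 14 dpi and 0.48 ± 0.20 at 100 dpi (limma adjusted p = 0.165 at 100 dpi). Of 14 other NF-kappa-B pathway genes tested, Rel and Traf6 were called. Against sham 1 was called higher at 30 dpi (5.9% of all tested genes) and 2 at 100 dpi (5.54%). Rel, an NF-kappa-B subunit, rose against sham by 2.73 ± 0.63 at 30 dpi (limma adjusted p = 0.0144) and 2.54 ± 0.63 at 100 dpi (0.0230), from means of at most 28.6 normalized counts. In sham it measured 5.95, 2.57 and 1.804 normalized counts, where 3 reads equalled 2.57 to 3.57, and with a pseudocount of 10 the rises were 1.47 and 1.33. Neither was called with only the 2 groups in the fit (limma adjusted p = 0.0655 and 0.0638). Its calls were lost without sham animal 2 or 3 and without animal 2 of either later group, and at 100 dpi also without animal 3 (limma adjusted p = 0.0567 to 0.0865). Traf6, an adaptor of receptor signalling, rose by 0.89 ± 0.19 at 100 dpi (limma adjusted p = 0.0100; 0.0547 without sham animal 1 and 0.0507 without 100 dpi animal 2).

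**Figure D3:**
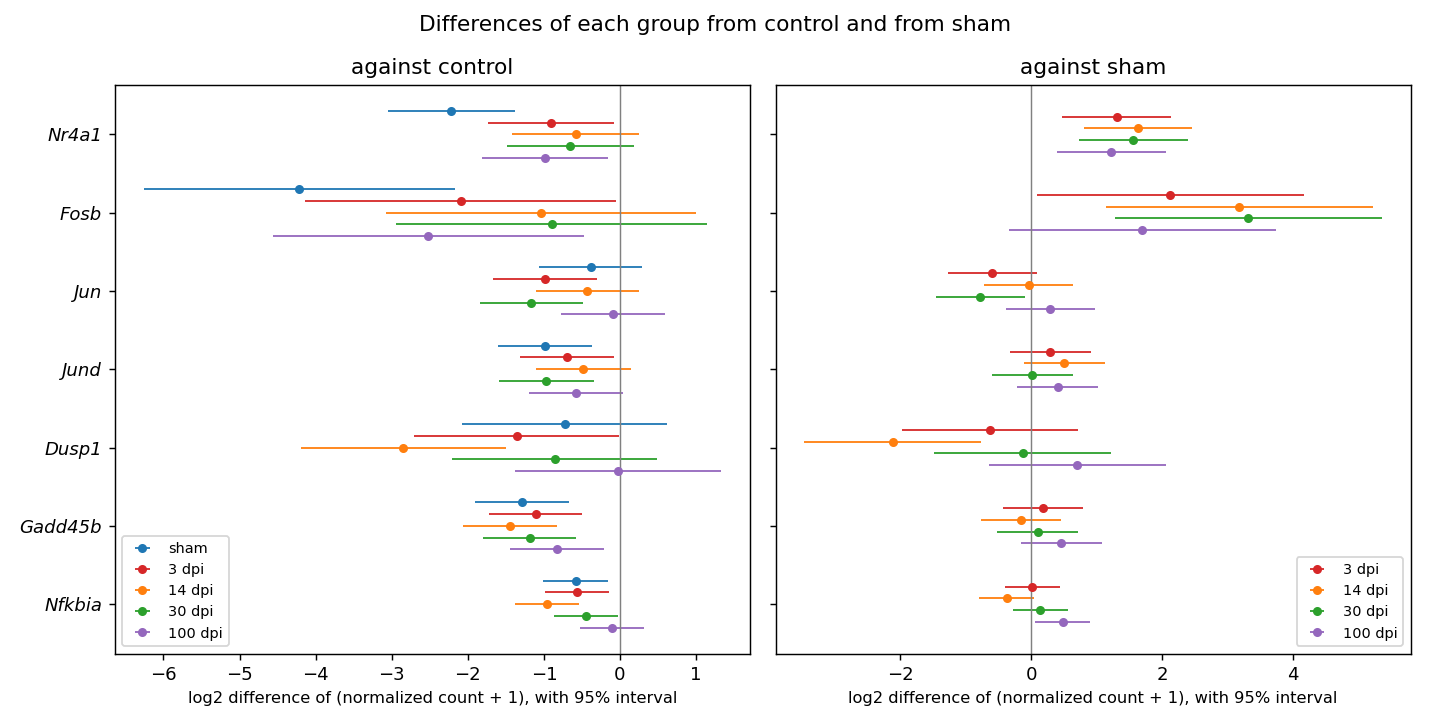
Log2 difference of (normalized count + 1) with its 95% interval for each of the 7 genes, against control on the left and against sham on the right; colours are the groups. All points on the left lie below 0 on this scale, from -4.22 for Fosb in sham to -0.02 for Dusp1 at 100 dpi, which lay above 0 with edgeR and DESeq2, as Nfkbia at 100 dpi did with the length trend removed, while on the right Nr4a1 and Fosb lie above 0 at all 4 times and Dusp1 is lowest at 14 dpi.

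All 7 genes had a lower fitted level than control in all 5 other groups, on the log2 scale; these 5 comparisons share the control libraries. For Dusp1 at 100 dpi the mean of the counts was above that of control, and the log2 difference was positive with edgeR (0.21) and DESeq2 (0.20); for Nfkbia at 100 dpi it was 0.0031 with the length trend removed. Sham against control had 0 of 7 called by limma, where 0% of all tested genes were called, and 5 of 7 at an unadjusted limma p under 0.05 (479 of all). edgeR called 0 of 7 and DESeq2 3 of 7 (29 of all). Groups did not overlap, with sham lower, for 5 of 7, against 6% of all tested genes. At 3 dpi 0 of 7 were called by limma (0.334% of all tested genes in either direction), and 7 had an unadjusted limma p under 0.05 (1565 of all). edgeR called 0 and DESeq2 1 (415 of all), and 4 were lower without overlap (10.1% of all).

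At 14 dpi Dusp1, Gadd45b and Nfkbia were called lower than control (3 of 7, against 0.172% of all tested genes called lower), and 4 were lower without overlap (13.1%); these are the 3 genes chosen for their low values at that time, so the calls restate the choice. At 30 dpi Jun, Jund and Gadd45b were called lower (3 of 7, against 3.95%), and 2 did not overlap (13.5%). At 100 dpi 0 of 7 were called by limma (12% of all in either direction), and 3 had an unadjusted limma p under 0.05 (2744 of all). edgeR called 0 (1215 of all) and DESeq2 2 (1775 of all), and 2 were lower without overlap (17.4%).  Without 1 control or 14 dpi animal at a time, 0 or 1 of the 7 were called at 14 dpi, and at 30 dpi 0 to 3.

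Against sham, few of the 7 were called. At 3 dpi 0 of 7 were called by limma (0.971% of all tested genes in either direction), and 2 had an unadjusted limma p under 0.05 (1894 of all). edgeR called 0 and DESeq2 1 (617 of all), and 1 was higher without overlap (13.2%). At 14 dpi 0 of 7 were called by limma (0.738%), and 3 had an unadjusted limma p under 0.05 (1262 of all). edgeR called 0 and DESeq2 3 (256 of all). Without overlap, 2 were higher (12.6%) and 2 lower (11%). At 30 dpi 2 of 7, Nr4a1 and Fosb, were called higher (5.9%), and both did not overlap with sham (14%); these are the 2 genes chosen for their low sham values. At 100 dpi 0 of 7 were called by limma (7.14%), and 2 had an unadjusted limma p under 0.05 (2139 of all). edgeR called 0 and DESeq2 1 (1154 of all), and 2 were higher without overlap (15.7%). With only 7 genes, and with sham values known when they were chosen, these shares are not a result about the group as a whole.

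Between times, 0 of 7 were called from 3 to 14 dpi by limma, where 0% of all tested genes were, and 1 had an unadjusted limma p under 0.05 (1205 of all). From 14 to 30 dpi 0 of 7 were called (3.97% of all in either direction) and 3 had an unadjusted limma p under 0.05 (1901 of all). From 30 to 100 dpi 0 of 7 were called (0.769%) and 1 had an unadjusted limma p under 0.05 (1589 of all). edgeR called 0 in each of these steps, and DESeq2 called 1 from 14 to 30 dpi, Dusp1, and 0 in the other steps. Of all tested genes DESeq2 called 95 from 3 to 14 dpi, 771 from 14 to 30 dpi and 383 from 30 to 100 dpi.

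A list of 34 other immediate early genes, of which 26 were measured and 23 tested, was lower in sham than in control for 21 of 23 genes. Its median log2 difference was -1.13, against 0.000317 over all tested genes, of which 49.98% were negative. In that comparison limma and edgeR called 0 genes of the whole table, DESeq2 29, and 479 had an unadjusted p under 0.05. Of the 23, 11 were lower in sham without overlap, against 6% of all tested genes. The list was drawn up with earlier results of these data known, and its genes share the same 3 sham and 3 control animals. These counts are therefore a description and not separate evidence for each gene. Klf2 and Klf4, factors that respond to flow in the endothelium, were 2 of these: Klf4 measured 1053, 3299 and 7175 normalized counts in control and 267, 879 and 950 in sham. Against control the list's median was -0.51 at 3 dpi, -0.52 at 14 dpi, -0.38 at 30 dpi and -0.39 at 100 dpi, with 16, 16, 16 and 18 of 23 genes negative.

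Against sham the same list had 2 of 23 genes called higher at 3 dpi (0.668% of all tested genes), 2 at 14 dpi (0.698%), 4 at 30 dpi (5.9%) and 3 at 100 dpi (5.54%). Besides Fosl2, Nr4a2 and Nr4a3 above, these were Sgk1, Trib1 and Ccn2. As the list was drawn up with earlier results known, its calls against the same sham animals are a description and not separate evidence. Trib1, a pseudokinase that steers protein breakdown, measured 684, 658 and 923 normalized counts in sham and 2721, 2739 and 2321 at 30 dpi, and rose by 1.79 ± 0.32 (limma adjusted p = 0.00249), a call kept without any of the 6 animals. At 100 dpi it rose by 1.28 ± 0.32 (limma adjusted p = 0.0251), a call kept only without sham animal 3. Sgk1, a kinase induced by serum and glucocorticoids, rose by 1.15 ± 0.25 at 3 dpi (0.0429), kept only without 3 dpi animal 2 and lost with only the 2 groups in the fit (0.163). Ccn2, a secreted factor of fibrosis, rose by 1.31 ± 0.35 at 100 dpi (0.0359), kept only without animal 2 of sham or of 100 dpi and lost with only the 2 groups in the fit (0.0949). Of the 10 alternative settings, the call for Sgk1 was kept in 7 and that for Ccn2 in 8.

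A list of heat shock genes held chaperones of the cytosol and mitochondria, the chaperone Hspa5 of the endoplasmic reticulum, and the transcription factors Hsf1 and Hsf2 that act on such genes. Of the 13 tested, 12 were lower than control in sham, 8 at 3 dpi, 12 at 14 dpi and 10 at 30 dpi, with a median log2 difference of -0.34, -0.10, -0.32 and -0.46 against 0.000317, 0.00841, 0.00234 and -0.03 over all tested genes. At 30 dpi 2 of 13 were called lower than control, against 3.95% of all tested genes. Hsp90aa1, the inducible HSP90 chaperone, was lower by -1.16 ± 0.24 (limma adjusted p = 0.00544; 0.0651 with only the 2 groups in the fit), and Hspe1, a mitochondrial chaperonin subunit, by -0.64 (0.0461, a call kept in 5 of 10 alternative settings and 1 of 6 fits that left out an animal). At 100 dpi 5 of 13 were called lower, against 4.45% of all: Bag3, Dnaja1, Hspb1, Hsp90ab1 and the factor Hsf1. The calls for Bag3 and Dnaja1 were kept without any of the 6 animals, those for Hspb1 and Hsf1 in 2 of 6 fits and that for Hsp90ab1 in none. Hspb1 and Hsf1 were also lost with only the 2 groups in the fit (limma adjusted p = 0.0536 and 0.0781) and with the length trend removed (0.114 and 0.0560). None of the 13 was called against sham at any time. This list too was drawn up with earlier results of these data known, and its genes share the same animals.

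Within groups, some of these genes shared their highest animal, though no pair passed the test below. Fosb and Dusp1 had the same highest animal in all 6 groups, and Nr4a1 shared its highest animal with Fosb and with Dusp1 in 5 of 6 each. Of all 18 animals, control animal 3 and 100 dpi animal 1 were each the highest of their group for 6 of the 7 genes, and sham animal 2, 3 dpi animal 1, 14 dpi animal 3 and 30 dpi animal 3 for 5 of 7. To measure this apart from the groups, each log2 value was taken as a deviation from its group mean, and the 21 pairs of genes were compared over the 18 animals. The correlation was positive for 16 of 21 pairs.

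The closest pair was Nr4a1 and Fosb, with a Pearson r of 0.745 (exact permutation p = 0.00491, within groups and two-sided; adjusted over the 21 pairs 0.103) and a Spearman rho of 0.715 (exact permutation p = 0.00849). Without the 2 animals farthest out in Nr4a1, 100 dpi animal 1 and 3 dpi animal 1, r was 0.687. The next was Dusp1 and Gadd45b with r = 0.684 (exact permutation p = 0.0204, adjusted 0.214). No pair passed after adjustment. Fosb and Dusp1, which had the same highest animal in all 6 groups, had r = 0.447 (exact permutation p = 0.101, adjusted 0.352). Jun and Jund, which encode proteins of 1 family, had r = 0.180 (exact permutation p = 0.501).

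**Figure D4:**
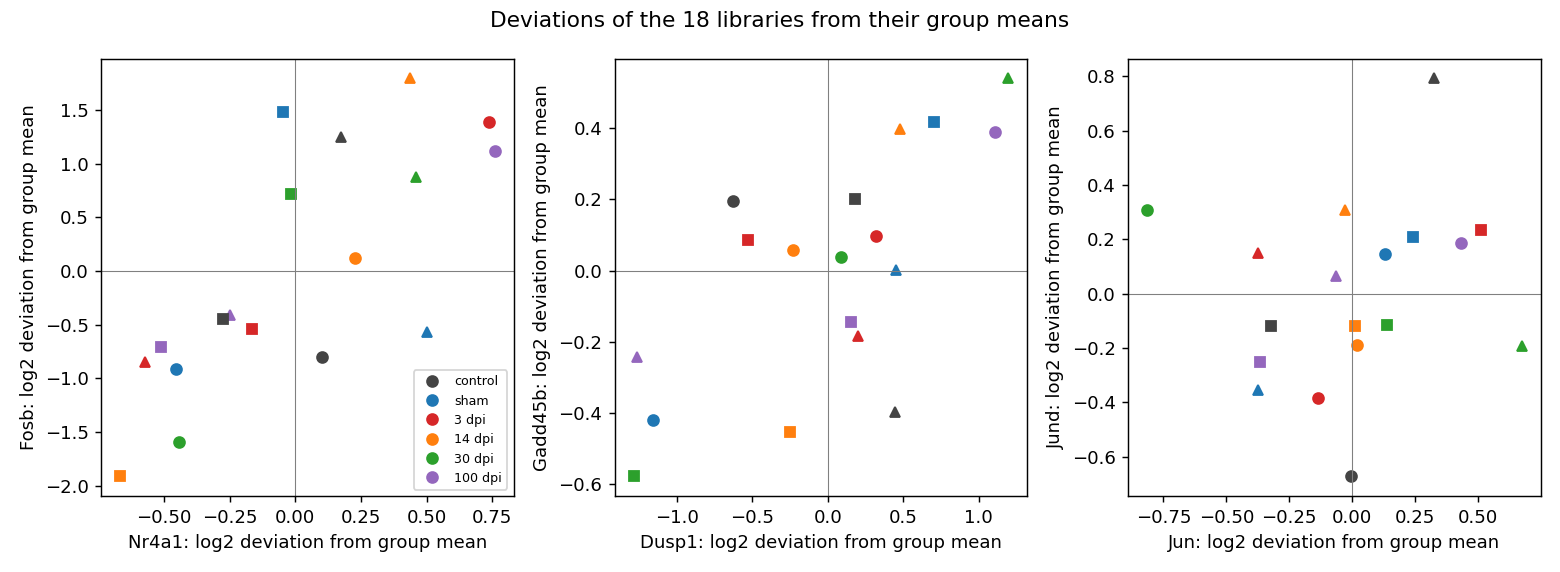
Deviation of each of the 18 animals from its group mean (log2 scale) for Nr4a1 against Fosb, Dusp1 against Gadd45b, and Jun against Jund; colours are groups, and circles, squares and triangles are animals 1, 2 and 3. The points rise together in the left panel (r = 0.745) and the middle panel (r = 0.684) and are scattered in the right one (r = 0.180).

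Across all 18 libraries, with group differences included, the gene most like Nr4a1 was Fosb (Pearson r = 0.890 on the log2 scale), followed by Mthfd2, an enzyme of mitochondrial folate metabolism (0.840), and Dusp5 (0.822). Fosb was most like Nr4a1, Mthfd2 (0.853) and Nr4a2 (0.793). Dusp1 was most like Fzd4, a WNT receptor (0.899), Junb (0.828) and Hmgxb3 (0.821). Gadd45b was most like Gadd45g (0.834), the antiproliferative gene Btg2 (0.826) and Fos (0.781). The nearest genes of Jun were Pnn (0.862), Depdc5 (0.745) and Srsf5 (0.739), and those of Jund were Srsf6 (0.810), Ccnl2 (0.791) and Atf4 (0.737). Pnn, Srsf5, Srsf6 and Ccnl2 encode proteins of RNA splicing. By Spearman rho, Jun had 0.814 with Pnn, 0.556 with Depdc5 and 0.715 with Srsf5. Jund had 0.748 with Srsf6 but only 0.501 with Ccnl2 and 0.346 with Atf4. Nfkbia was most like Pfdn4 (0.820), Lyrm1 (0.787) and Rps24 (0.775). These are the 3 most similar tested genes for each, in libraries that share groups and scaling, and are a description without a test.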

How the data were processed

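Poly-A RNA of 18 leopard gecko ventricles was sequenced. The authors aligned reads to a gecko genome, assembled transcripts and named them by mouse genes, per the design text. HISAT2 2.2.0, StringTie 2.2.1 and Salmon 1.8.0 are listed in the submitters' processing notes. The authors deposited normalized counts, a signal of reads scaled by library (how they were scaled is not given in the sources used here), and an FPKM table. In every library all 196543 values above 0 were whole multiples of 1 step within 0.1 read, so the reads behind the deposited normalized counts were recovered. Recovered totals were 12646411 to 34898541 reads, and 3 reads equalled 1.45 to 3.95 normalized counts, a floor that covers counting error only.

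Testing was limited to the 9887 genes that averaged 10 normalized counts or more, which left out 2489. All 6 groups entered 1 limma-trend model (two-sided, limma 3.58.1 under R 4.3.3, with 12 residual degrees of freedom) on log2(normalized count + 1), with no block. The exact permutation test of 3 against 3 animals cannot go below p = 0.1, so calls rest on the model. It was tested on simulated counts for sham against control, with large changes in well-expressed genes only. That test does not cover smaller changes, lower genes or other comparisons.

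The members and gene lists were chosen with earlier results of these data known, and the comparison of 100 with 14 dpi, given without a test, was added after its values were seen. Named are the 7 genes, their close relatives, list genes that were called, and the 3 most similar genes of each; 2 called list genes are not reported here. Alternatives were pseudocounts of 0.1 and 10, no filter, TMM factors, the FPKM table (pseudocount 0.1), only the 2 groups compared, a replicate block, removal of the length trend, edgeR 4.0.16 quasi-likelihood and DESeq2 1.42.0 on recovered reads, and each library left out. Motif searches were not run and no sequence is shown, since none was used here. Plots were made in matplotlib 3.10.9 under Python 3.11.15.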

Additional observations from a re-analysis of the deposited data

Results flagged for a closer look

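Nfkbia lay on opposite sides of sham at 2 times after injury: all 3 animals at 14 dpi (611, 690 and 668 normalized counts) were below all sham animals (829, 860 and 862), and all 3 at 100 dpi (953, 1270 and 1377) were above them. Over all tested genes, 11% were below sham without overlap at 14 dpi and 15.7% above it at 100 dpi. The sham animals lay close together for Nfkbia (850 ± 18.2, SD, n = 3), and at 100 dpi it was not called against sham (limma adjusted p = 0.165). The log2 difference of 100 dpi from 14 dpi was 0.85 ± 0.20. That difference was not tested, since the low values at 14 dpi were known when the gene was chosen and the comparison was added after they were seen.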

How the results depend on the processing

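Over 128 differences and 10 alternatives, 1168 values kept their sign and their side of the threshold, 95 lost a call, 12 gained one and 5 changed sign, and with 1 animal left out 568 stayed, 177 lost a call, 2 gained one and 21 changed sign. The 5 were Dusp1 at 100 dpi against control with edgeR (0.21) and DESeq2 (0.20), Jund at 30 dpi against sham in the FPKM table (-0.0896), Nfkbia at 100 dpi against control with the length trend removed (0.0031) and Nfkbia at 3 dpi against sham with TMM factors (-0.0042). With 1 animal left out, sign changed against control at 100 dpi for Dusp1 (-0.58 to 0.61), Jun (-0.31 to 0.0908) and Nfkbia (-0.21 to 0.0522), and against sham for Dusp1 at 30 dpi (-0.73 to 0.51), Gadd45b at 3 dpi (-0.0325 to 0.39), 14 dpi (-0.37 to 0.0709) and 30 dpi (-0.17 to 0.39), Jun at 14 dpi (-0.23 to 0.0817), Jund at 30 dpi (-0.16 to 0.12), and Nfkbia at 3 dpi (-0.16 to 0.19) and 30 dpi (-0.0682 to 0.36). None of these was called. The count of the 7 genes called moved most with DESeq2, which called 3 in sham and 1 at 3 dpi and 2 at 100 dpi against control, 1 at 3 dpi, 3 at 14 dpi and 1 at 100 dpi against sham, and 1 from 14 to 30 dpi. At 14 dpi against control the 3 became 0 with the replicate block and 1 with the length trend removed. At 30 dpi against control the 3 became 0 with only the 2 groups compared and 0 with the length trend removed. At 30 dpi against sham the 2 became 1 with a pseudocount of 10, no filter, the FPKM table, only the 2 groups, the replicate block, the length trend removed or edgeR. With 1 animal left out, the count was 0 to 1 at 14 dpi and 0 to 3 at 30 dpi against control, 0 to 2 at 30 dpi against sham, 0 to 1 from 14 to 30 dpi, and 0 in the other comparisons. The cause was not tested.

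The replicate numbers did not pair the animals: over 45 pairs with the same number the correlation of deviations was -0.179 to 0.230, above 0.1 in 5, and 4 of 18 libraries correlated best with their own number. The block otherwise left 2 of 7 called at 30 dpi against control.

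The background counts of all genes moved too. With DESeq2 they were 29 in sham (0 with limma), 415 at 3 dpi (33) and 406 at 14 dpi (88) against control, 617 at 3 dpi (96), 256 at 14 dpi (73) and 1154 at 100 dpi (706) against sham, 95 from 3 to 14 dpi (0), 771 from 14 to 30 (393) and 383 from 30 to 100 (76). With only the 2 groups they were 0 at 3 dpi and 405 at 30 dpi (1120) against control, 11 at 3, 42 at 14 and 281 at 30 dpi (717) against sham, 177 from 14 to 30 and 0 from 30 to 100 dpi. With the block they were 16 at 3 and 52 at 14 dpi against control, 50 at 3 dpi against sham and 10 from 30 to 100 dpi. With the FPKM table they were 17 and 58 against control and 40 at 3 dpi against sham, and 1 from 3 to 14 dpi, where a pseudocount of 10 gave 7 and no filter 32; no filter gave 74 at 3 dpi against control. With the length trend removed they were 519 at 30 dpi against control, 353 at 30 dpi against sham and 178 from 14 to 30 dpi. That setting also moved the split of higher and lower calls, from 747 and 440 to 481 and 508 at 100 dpi against control, from 548 and 158 to 334 and 247 at 100 dpi against sham, and from 239 and 154 to 86 and 92 from 14 to 30 dpi. TMM factors moved it from 22 and 11 to 22 and 20 at 3 dpi against control. Depth did not limit these genes except Fosb, with 10 to 78 reads in sham and as few as 45 in another group (14 dpi animal 2).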
